A study of Rattus norvegicus with 12 samples.

Results

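Peroxisomal genes were followed in liver RNA counts of obese ZSF1 rats: every gene whose symbol is Pex and a number, plus a list of 28 membrane carriers and enzymes of the peroxisome, of which 27 were present. This gave 43 of 16478 genes, in 4 classes: 16 peroxins, 6 transporters, 18 enzymes of the matrix (the interior of the organelle) and 3 enzymes of ether lipid synthesis. The thiolase gene Acaa1b was not analysed here. The gene now called Pex2 stands in the files under its older symbol Pxmp3, which the rule did not take, and its values are given apart. Membership rests on symbols, from a list drawn up with earlier results of these libraries known.

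The animals were 6 females and 6 males, all ZSF1, obese, adult, 16 weeks old and untreated, with 1 liver library each. ZSF1 rats descend from parents of different strains that each pass on a mutated leptin receptor gene. An obese animal has inherited the mutation on both sides, so females and males shared the defect, and no lean animal was analysed here. Female libraries held 6763879 to 24837602 counts in genes and male libraries 11381428 to 29232871. Levels are counts per 1000000 (CPM) scaled by TMM factors, and at these depths 3 counts were worth 0.103 to 0.444 CPM. Hepatocyte markers identified the tissue: the summed level of 9 such genes was 236051 to 312904 CPM in females and 197523 to 258101 in males. Of 5 genes of the kidney, another tissue rich in peroxisomes, Slc34a1 had no count in any library, and Slc5a2, Umod and Kap stayed at or below 0.0873 CPM. The fifth, Lrp2, stood at 17.0 to 18.7 CPM in females and 16.7 to 26.2 in males and was called higher in males (1.27-fold, adjusted p = 0.00593). Male 4 and female 12 stood apart from the other libraries of their sex, and results whose call, or count by over 1.5 times, turned on either are given without it.

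Peroxisomes are small organelles bounded by a single membrane. Their matrix enzymes are made in the cytosol and imported by receptors that read short targeting signals, and the peroxins build the membrane, run the import cycle and divide the organelle. In liver the matrix shortens very long and branched acyl chains and the side chain of bile acid precursors by beta-oxidation, shortens phytanic acid, whose methyl branch blocks beta-oxidation, by alpha-oxidation, and houses oxidases that release hydrogen peroxide. In rodents many of these genes respond to PPAR-alpha, a nuclear receptor for fatty acids that binds DNA with RXR.

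The matrix enzymes were mostly higher in males, while the peroxins that build the organelle were spread to both sides of zero with small differences. A gene is called here where edgeR's quasi-likelihood adjusted p, taken over all 9943 genes tested, is under 0.05. Of the 43 genes 40 passed the filter on low counts. Among these 40, 17 were higher in males and 4 in females, beside 22.7% and 20.5% of all genes tested. Males had the higher level for 13 of the 18 matrix enzymes and females for 1, with a median log2 fold change (females over males) of -0.32. The 15 tested peroxins gave 3 and 2, with a median of -0.11, and the median of all genes tested was -0.01. Without male 4 and female 12 the 40 genes gave 18 and 3, the matrix enzymes 15 and 1, and the peroxins 2 and 1, beside 22.5% of all genes called higher in males and 24.2% in females.

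Many of the male differences were wide. Of the 40 tested genes 10 had every male above every female, beside 12.8% of all genes tested, and 1 (Far1) had every female above every male, beside 10.1%; either way, the share over all genes was 22.8%. In males 8 genes were called at least 1.5-fold higher, beside 6.09%, and in females only Far1 was, beside 8.73% for 1.5-fold and 3.22% for 2-fold. All 8 were matrix enzymes, and 43.2% of all genes tested were called in either direction. Far1 reached the level the filter asks for, 0.621 CPM, in 6 females and 0 males. It passed the filter through the females alone, so that it had to differ, here and among the 4 genes called higher in females.

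**Figure D1:**
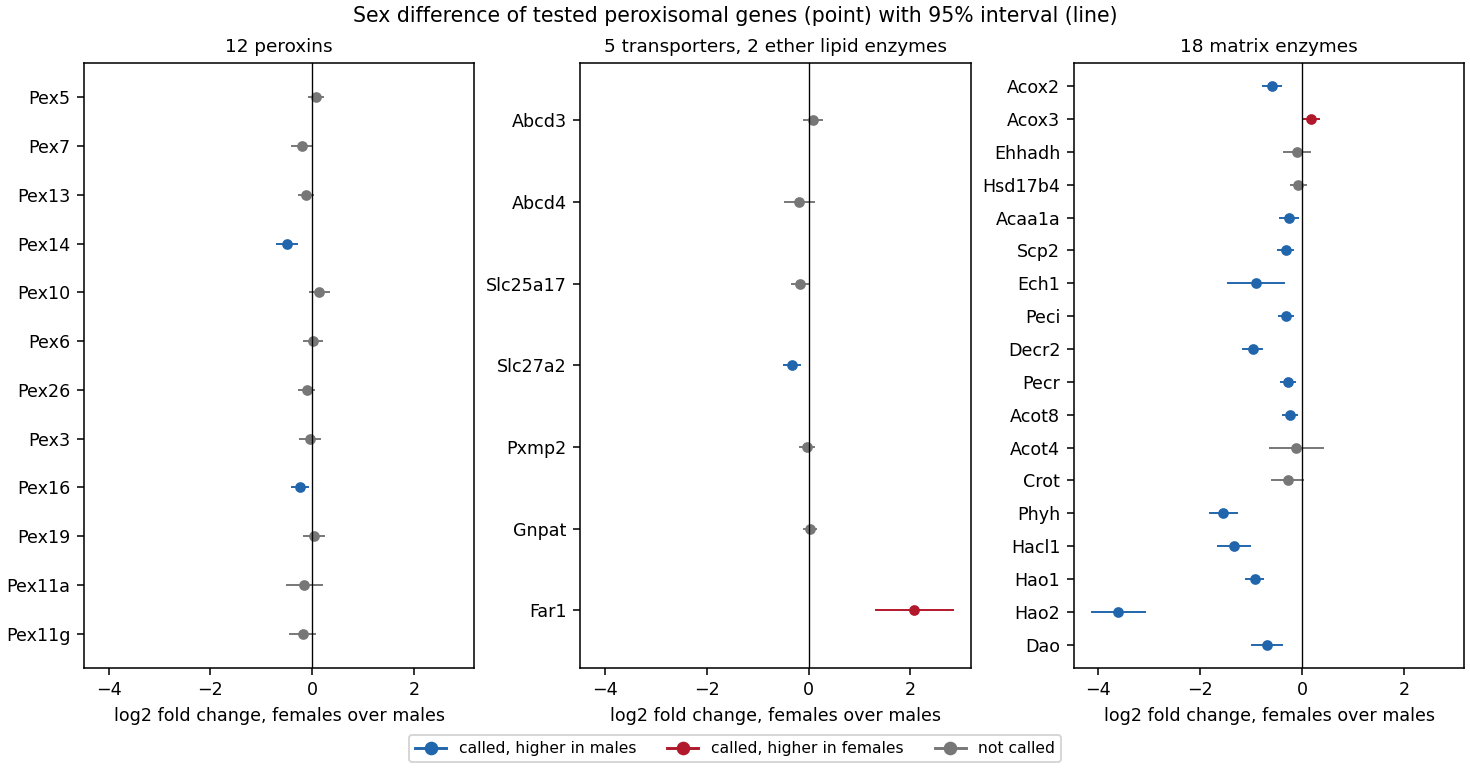
Log2 fold change, females over males, of 37 tested genes in 3 panels (peroxins; transporters and ether lipid enzymes; matrix enzymes), with points for estimates, lines for 95% intervals and colour for the call. The peroxins shown lie between -0.49 and 0.14, whereas the matrix enzymes reach from -3.61 for Hao2 to 0.18 for Acox3.

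The same contrast stood in the share of each library's counts, which restates the same genes and is weighted to the most abundant. Scp2 and Phyh had the highest male means among the matrix enzymes, at 2257 and 1752 CPM, against 1803 and 599 in females. Matrix enzyme genes took 0.590% to 0.657% of gene counts in females (mean 0.617% ± 0.0259, SD, n = 6) and 0.744% to 1.02% in males (0.929% ± 0.100). The 2 ranges did not overlap. Peroxins took 0.0582% to 0.0706% in females and 0.0567% to 0.0674% in males, which overlapped almost throughout. The genes were listed with earlier results of these libraries known, so no test was made of these sums. In bulk liver RNA, fewer cells of a type and less RNA per cell cannot be told apart. Summed markers of periportal hepatocytes were lower in females (11527 to 12223 CPM against 12573 to 16545, 8 genes) and those of pericentral hepatocytes higher (2770 to 3575 against 1587 to 2420, 7 genes). Sinusoidal endothelial markers ran from 76.0 to 94.4 CPM in females and 28.1 to 75.9 in males (4 genes), and red blood cell markers from 298 to 707 and 515 to 1257 (3 genes). Acute phase genes summed to 23031 to 29831 CPM in females and 32836 to 77859 in males (12 genes). Males other than male 4 reached up to 37475. Adipocyte markers summed to 88.0 to 96.0 and 105 to 126 (4 genes). Neither sum overlapped between the sexes. The adipocyte sum was almost all Cidec, at 87.1 to 95.2 CPM in females and 104 to 125 in males. Lep had 0 counts, Adipoq had 3 counts in females and 1 in males, and Fabp4 was not called. The part of these in the results was not tested.

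Of the genes higher in males, Hao2 and both genes of alpha-oxidation had the widest gaps. Hao2, the oxidase of long-chain 2-hydroxy acids, ran from 18.3 to 37.3 CPM in females (median 35.0) and from 236 to 542 in males (median 385). Every male stood far above every female, and the fitted difference was 12.2-fold (95% interval 8.51 to 17.6, adjusted p = 2.08e-07). Hao1, the glycolate oxidase, ran from 251 to 324 CPM in females (median 285) and from 448 to 580 in males (median 560), which was 1.90-fold (1.69 to 2.14, adjusted p = 4.62e-07). Dao, which oxidises D-amino acids, ran from 67.5 to 141 CPM in females (median 98.2) and from 139 to 188 in males (median 153). The lowest male lay just inside the female range, and Dao was 1.61-fold higher in males (adjusted p = 0.00142).

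Both genes of alpha-oxidation were higher in males, beside 22.7% of all genes tested. Phyh encodes the phytanoyl-CoA hydroxylase that starts the pathway, and it ran from 497 to 704 CPM in females (median 592) and from 1258 to 2088 in males (median 1823). Hacl1, the lyase that then cleaves the 2-hydroxyacyl-CoA, ran from 120 to 169 CPM in females (median 135) and from 200 to 409 in males (median 362). Neither gene overlapped between the sexes, although male 4, at 1258 and 200 CPM, was the lowest male for both. The fitted difference was 2.93-fold for Phyh (2.44 to 3.51, adjusted p = 2.29e-07) and 2.52-fold for Hacl1 (2.02 to 3.15, adjusted p = 1.05e-05). Hao2, Phyh and Hacl1 were the 3 members called at least 2-fold higher in males, beside 2.53% of all genes tested.

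**Figure D2:**
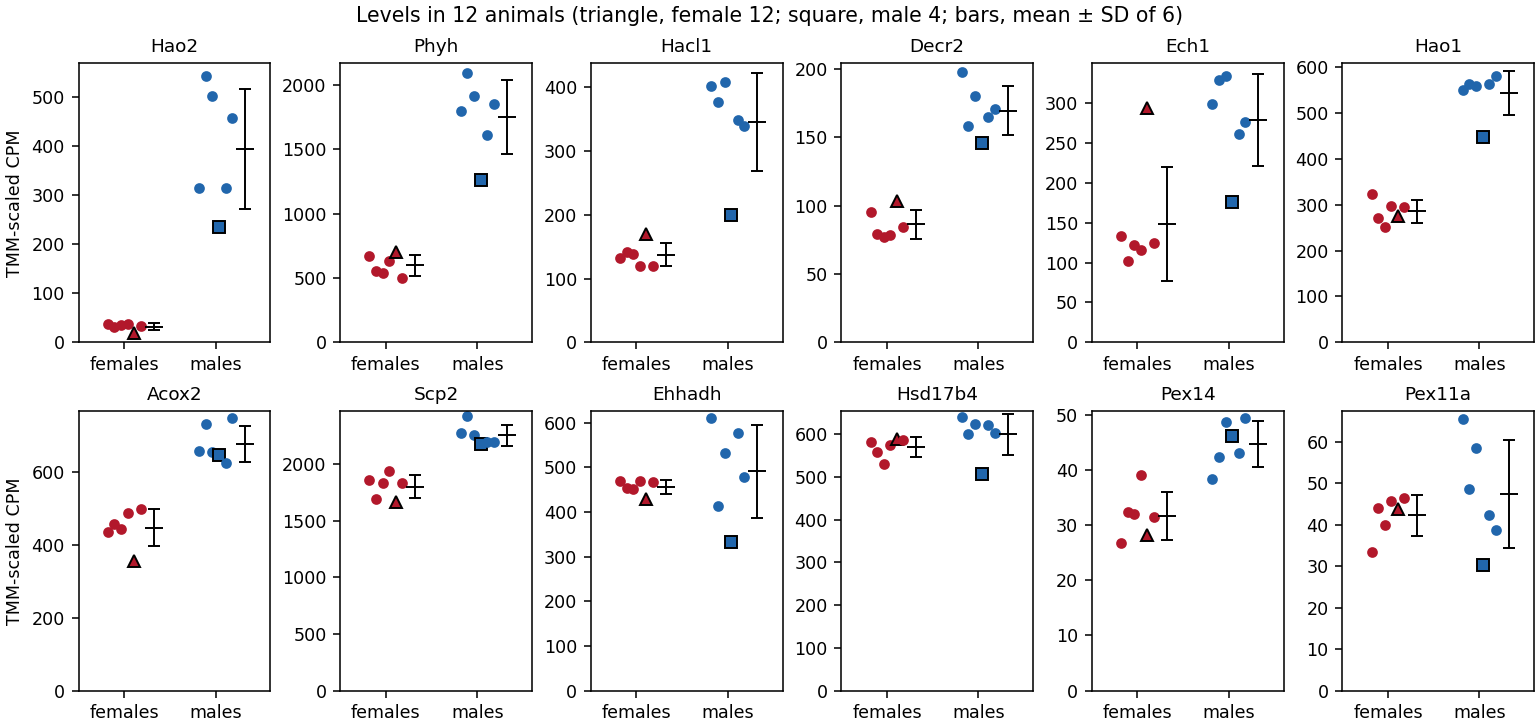
TMM-scaled CPM of 12 genes in each animal, females in red and males in blue, with the mean ± SD of 6 beside each group; each vertical axis starts at 0. Hao2, Phyh, Hacl1, Decr2, Hao1, Acox2 and Scp2 do not overlap between the sexes, Ech1 overlaps through female 12 (triangle), and male 4 (square) is the lowest male in most panels.

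The promoters of these 3 genes are shown because the genes had the widest male excess, and the last 100 bases before each RefSeq start site (build GRCr8, gene strand, 5′ to 3′) hold no capital because no match to the PPAR-alpha and RXR repeat with 2 or fewer mismatches was found in their windows.
Hao2, chr2:188913134-188913233, minus strand: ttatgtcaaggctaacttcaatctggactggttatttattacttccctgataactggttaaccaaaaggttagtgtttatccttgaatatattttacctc
Phyh, chr17:78255646-78255745, minus strand: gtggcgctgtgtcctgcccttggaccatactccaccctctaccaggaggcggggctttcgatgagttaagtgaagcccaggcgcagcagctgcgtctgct
Hacl1, chr16:6869411-6869510, minus strand: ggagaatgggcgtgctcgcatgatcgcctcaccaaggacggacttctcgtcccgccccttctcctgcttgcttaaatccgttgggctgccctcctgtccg

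The repeat searched was AGGTCA, any base and AGGTCA again, on both strands, in windows of 250 bases before to 50 after the start, which RefSeq held for 37 of the 43 genes. No member window held it exactly, beside 0.0538% of all 33469 windows. With up to 1 mismatch it was found in 2 member windows (5.41%, beside 0.439% of all windows) and with up to 2 in 3 (8.11%, beside 3.77%). The shorter AGGTCA, which lies within the repeat, was in 9 (24.3%, beside 16.2%). The 3 near matches are shown, with the 13 matching positions in capitals.
Acot8, chr3:173962189-173962238, minus strand, 1 mismatch: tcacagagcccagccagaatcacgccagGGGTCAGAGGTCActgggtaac
Acot4, chr6:109399804-109399853, plus strand, 1 mismatch, repeat on the other strand: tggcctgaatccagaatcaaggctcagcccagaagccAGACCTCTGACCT
Slc27a2, chr3:134258006-134258055, plus strand, 2 mismatches, repeat on the other strand: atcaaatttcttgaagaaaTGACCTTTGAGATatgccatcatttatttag
These matches are letters only. Of the 3 genes, Acot8 and Slc27a2 were called higher in males and Acot4 was not called.

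In core beta-oxidation 3 of 6 tested genes were called higher in males and 1 in females, beside 22.7% and 20.5% of all genes tested. Acox2, the oxidase of branched chains and bile acid precursors, ran from 356 to 500 CPM in females (median 451) and from 625 to 747 in males (median 657). The ranges lay apart, and the difference was 1.52-fold (1.34 to 1.72, adjusted p = 5.82e-05). Acox3, a related oxidase of branched chains, went the other way, at 208 to 254 CPM in females (median 224) and 174 to 215 in males (median 206). Its 1.13-fold excess in females (adjusted p = 0.0401) was lost in 8 of 22 alternative fits, among them those without female 8, 10 or 13 or without male 1, 2, 3 or 4 (adjusted p at most 0.0786).

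The next steps of the cycle differed little. Ehhadh, a bifunctional enzyme of hydration and dehydrogenation that PPAR-alpha controls, ran from 429 to 469 CPM in females (median 460) and from 334 to 611 in males (median 505). The males reached to both sides of the females, and the log2 fold change was -0.10 with a 95% interval of -0.36 to 0.15 (adjusted p = 0.515). Hsd17b4, the second bifunctional enzyme, which handles branched chains, ran from 529 to 588 CPM in females (median 578) and from 507 to 639 in males (median 612), and was not called (log2 fold change -0.07, interval -0.21 to 0.07).

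The thiolase step was called higher in males. Scp2, whose gene makes a thiolase for branched chains and a lipid carrier, ran from 1662 to 1937 CPM in females (median 1831) and from 2183 to 2430 in males (median 2229). No female reached the males, and the difference was 1.25-fold (1.13 to 1.38, adjusted p = 0.0013). Acaa1a, the thiolase of straight chains, ran from 21.9 to 27.4 CPM in females (median 26.6) and from 26.4 to 34.5 in males (median 30.8), 1.20-fold higher in males (adjusted p = 0.0153). Its near-identical copy Acaa1b was not analysed here, so how reads were split between the copies is uncertain.

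All 4 auxiliary enzymes, which prepare unsaturated chains for the cycle, were higher in males, beside 22.7% of all genes tested. Their median log2 fold change was -0.61. Decr2, the peroxisomal dienoyl-CoA reductase, ran from 77.1 to 103 CPM in females (median 81.6) and from 146 to 198 in males (median 168). This gene did not overlap between the sexes and differed 1.97-fold (1.72 to 2.24, adjusted p = 9.45e-07). Ech1, the dienoyl-CoA isomerase, ran from 102 to 293 CPM in females (median 124) and from 176 to 334 in males (median 287). Female 12 alone lay within the male range. The difference of Ech1 was 1.88-fold (1.28 to 2.76, adjusted p = 0.0124) and 2.33-fold without female 12.

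The other pair of auxiliary enzymes differed less. Peci, the enoyl-CoA isomerase now called Eci2, ran from 201 to 215 CPM in females (median 206) and from 228 to 293 in males (median 261), 1.25-fold higher with no overlap (adjusted p = 0.0015). Pecr, the trans-2-enoyl-CoA reductase, ran from 462 to 500 CPM in females (median 471) and from 491 to 634 in males (median 575), 1.21-fold higher (adjusted p = 0.00415).

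Of the 3 genes that release shortened chains for export, 1 was higher in males, beside 22.7% of all genes tested. The thioesterase gene Acot8 ran from 12.7 to 14.3 CPM in females (median 13.7) and from 14.3 to 16.9 in males (median 16.3), a 1.18-fold difference (adjusted p = 0.0067). Crot, the carnitine octanoyltransferase, ran from 347 to 558 CPM in females (median 458) and from 377 to 672 in males (median 595), and was not called (adjusted p = 0.112). Without male 4, the lowest male, Crot was 1.29-fold higher in males (adjusted p = 0.0153). Acot4, a thioesterase of dicarboxylic and other acyl-CoAs, ran from 36.5 to 88.7 CPM in females (median 42.1) and from 36.1 to 71.9 in males (median 53.9). Its highest value was that of female 12, and Acot4 was not called with all animals (adjusted p = 0.729) and 1.36-fold higher in males without male 4 and female 12 (adjusted p = 0.021). Acot4 lies in a family of close copies, between which reads may be split.

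Among the transporters 1 of 5 tested was higher in males, beside 22.7% of all genes tested. Slc27a2, the acyl-CoA synthetase of very long chains, ran from 1118 to 1363 CPM in females (median 1191) and from 1409 to 1632 in males (median 1501). The ranges lay apart, and the difference was 1.25-fold (1.13 to 1.39, adjusted p = 0.00214). Pxmp2, a channel of the membrane, ran from 169 to 202 CPM in females (median 190) and from 177 to 208 in males (median 190), with a log2 fold change of -0.03 (interval -0.16 to 0.10). Slc25a17, a carrier of CoA and other cofactors, had an adjusted p of 0.0844 and a log2 fold change of -0.17, and was called without female 7 or without male 6.

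The half-transporters of the Abcd family bring acyl chains into the organelle, except Abcd4, which serves vitamin B12 transport in lysosomes. Abcd3, which imports bile acid precursors and dicarboxylic and branched chains, ran from 280 to 311 CPM in females (median 294) and from 228 to 338 in males (median 273), with an interval for the log2 fold change of -0.10 to 0.27. Abcd4 was not called either (log2 fold change -0.18, adjusted p = 0.287). Abcd2, a carrier of very long and polyunsaturated chains, was near the limit of detection and was not tested. It had 4, 4, 2, 7, 6 and 7 counts in females 7, 8, 9, 10, 12 and 13, and 1, 1, 0, 1, 0 and 1 in males 1 to 6. Every female count exceeded every male count. The summed counts, 30 against 4, gave a ratio of 8.48 per gene count (exact 95% interval 2.99 to 33.1, which covers counting error only), and with no filter Abcd2 was called higher in females (edgeR adjusted p = 0.000302).

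The peroxins are taken by their step, beginning with import. Pex5, the receptor for the C-terminal targeting signal, ran from 119 to 139 CPM in females (median 136) and from 108 to 133 in males (median 128). The ranges overlapped widely, and the log2 fold change was 0.08 (interval -0.06 to 0.21, adjusted p = 0.362). Pex7, the receptor for the N-terminal signal that Phyh carries, had a log2 fold change of -0.20 (adjusted p = 0.0979). Pex7 was called higher in males without female 12 (1.19-fold, adjusted p = 0.0379) and without male 4 (1.18-fold, 0.0409). Pex5l, a relative of Pex5 known from brain, had 0 counts in all 12 libraries, which allows up to 0.0148 CPM over the summed depth of the 12 libraries.

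At the docking site on the membrane Pex14 had the widest sex difference of the peroxins. Pex14 ran from 26.8 to 39.1 CPM in females (median 31.7) and from 38.4 to 49.5 in males (median 44.6). A single female, female 10, reached the lowest male. The difference of Pex14 was 1.41-fold (1.23 to 1.61, adjusted p = 0.00049), and Pex14 kept its call in all 22 alternative fits. Its partner Pex13 ran from 60.5 to 76.9 CPM in females (median 68.2) and from 70.5 to 80.1 in males (median 72.9) and was not called (log2 fold change -0.12, adjusted p = 0.147).

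Ubiquitin ligases and an export complex mark the receptor and pull it back to the cytosol. Pex10, a RING ligase, ran from 11.6 to 16.1 CPM in females (median 15.5) and from 11.5 to 15.1 in males (median 13.8) and was not called (log2 fold change 0.14), except without female 7. Another ligase, listed as Pxmp3, ran from 28.0 to 35.3 CPM in females and from 26.4 to 34.0 in males (log2 fold change -0.03, adjusted p = 0.748). Neither ligase stood apart between the sexes. Pex6, a motor ATPase of receptor export, ran from 42.0 to 59.3 CPM in females (median 56.7) and from 46.8 to 60.1 in males (median 53.6), with a log2 fold change of 0.02 (interval -0.16 to 0.19). Pex26, which anchors it to the membrane, was not called (log2 fold change -0.11).

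The 3 genes of membrane protein insertion gave 1 small difference, beside 22.7% of all genes tested called higher in males. Pex16, which with Pex3 and Pex19 places proteins in the membrane, ran from 46.0 to 59.9 CPM in females (median 53.1) and from 56.4 to 71.4 in males (median 61.4), 1.18-fold higher in males (adjusted p = 0.0191, and 0.0551 without male 4 and female 12). Pex19, the soluble chaperone of membrane proteins, ran from 35.4 to 51.2 CPM in females (median 36.6) and from 33.1 to 41.5 in males (median 37.8), with a log2 fold change of 0.04. Pex3, its docking factor, had a log2 fold change of -0.04 (adjusted p = 0.733).

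Of the elongation and division factors Pex11a, the form that peroxisome proliferators induce, ran from 33.4 to 46.4 CPM in females (median 43.9) and from 30.3 to 65.6 in males (median 45.5). Males lay on both sides of the females, and the interval of the log2 fold change was -0.50 to 0.19 (adjusted p = 0.461). Pex11g was not called (log2 fold change -0.19, adjusted p = 0.199).

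Ether lipid synthesis begins in the peroxisome, and its 3 genes had few counts except for Gnpat. Gnpat, the acyltransferase of the first step, ran from 20.4 to 23.9 CPM in females (median 21.7) and from 20.5 to 23.1 in males (median 21.5), with a log2 fold change of 0.03 (interval -0.09 to 0.15). Far1, which makes the fatty alcohol, had 19, 21, 7, 25, 26 and 25 counts in females 7, 8, 9, 10, 12 and 13, and 5, 3, 1, 9, 7 and 8 in males 1 to 6. Far1 passed the filter through the females alone, so that it had to differ, and the 123 against 33 summed counts gave a ratio of 4.21 per gene count (exact 95% interval 2.85 to 6.39, counting error only). Agps, the enzyme that puts the ether bond in place, had 35 and 24 counts in all and was not tested. Its ratio was 1.65 (0.953 to 2.90).

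Ratios of 2 members within each library do not depend on how libraries are scaled, and 9 were compared by a 2-sided exact permutation test over 924 assignments of the animals, with 0.5 added to counts. A difference below is the mean log2 ratio in females minus that in males. Acox2 over Acox3 differed by -0.79 and Hao2 over Hao1 by -2.66, with all 6 females below all 6 males. Abcd2 over Abcd3 differed by 2.45, with all females above. Each of the 3 gave an exact p = 0.00216, the smallest this design allows, and 0.00649 after Benjamini-Hochberg adjustment over the 9. These members were known to differ when the ratios were chosen. Abcd2 had 0 or 1 count in each male, so the size of its ratio difference rests partly on the 0.5 added and on depth.

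The other ratios did not pass the adjusted threshold. Ehhadh over Hsd17b4 differed by -0.01 (adjusted p = 0.972 by the exact test), with an SD of 0.0755 in females and 0.223 in males. Hacl1 over Phyh, the 2 genes of alpha-oxidation, differed by 0.24 (0.0942) and Pex7 over Pex5, the import receptors, by -0.28 (0.0818). Acot4 over Acot8 and Agps over Gnpat differed by 0.09 and 0.75, with adjusted p of 0.972 and 0.0818 by the exact test.

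**Figure D3:**
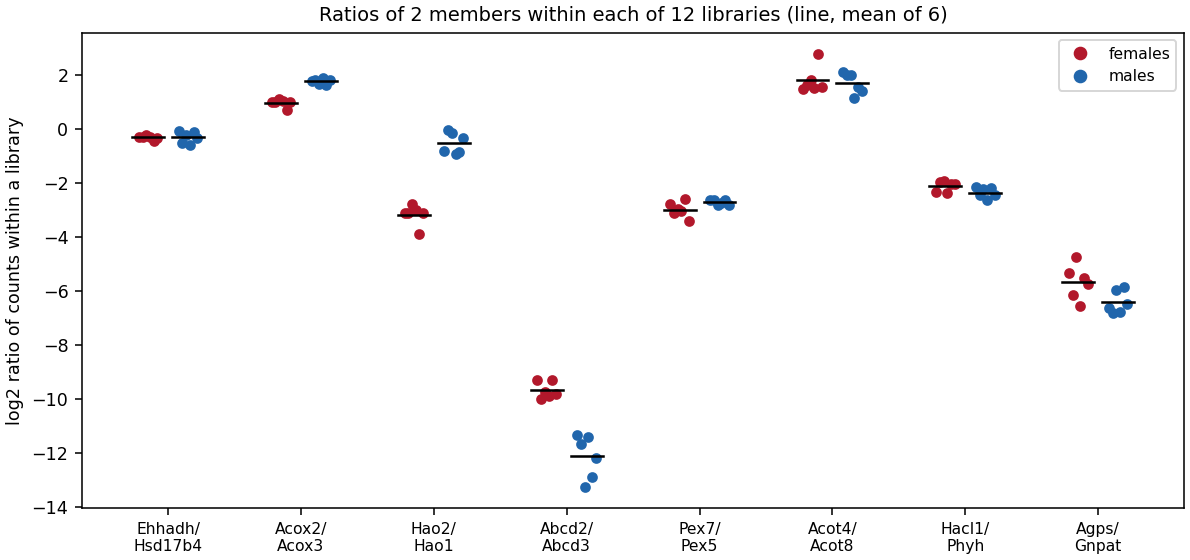
Log2 ratio of the counts of 2 genes within each of 12 libraries, for 8 pairs, with females in red, males in blue and a line at the mean of 6. The sexes do not overlap for Acox2 over Acox3, Hao2 over Hao1 and Abcd2 over Abcd3, and they overlap for the other 5 pairs; the level of a ratio also carries the lengths of its 2 genes, so only the gap between sexes is read.

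Male 4 and female 12 departed from their own sex in different ways. Male 4 was the lowest male for 22 of the 40 tested genes and for 14 of the 18 matrix enzymes, beside 30.3% of all genes tested. In the same animal the summed level of 12 acute phase genes was 77859 CPM, against 32836 to 37475 in the other males, and that of 11 Kupffer cell and macrophage genes 559 CPM, against 144 to 254. Stellate cell markers, at 281 CPM against 153 to 204, and bile duct markers, at 13.6 against 5.74 to 8.36, were also higher in male 4 than in the other males. Its summed hepatocyte markers were lower, at 197523 CPM against 240061 to 258101. So were its summed periportal (12573 against 13567 to 16545) and pericentral ones (1587 against 1770 to 2420). Most of the hepatocyte sum was Alb, at 119154 CPM in male 4 against 163046 to 181589. Other members of these lists went the other way: Tf, Cdh1, Cyp1a2 and Slc1a2 were each highest in male 4 among the males. The part of any of these in its low matrix genes was not tested. Female 12 was the lowest female for 15 of the 40 genes and the highest for 11, beside 25.1% and 24.3% of all genes tested. Hao2 was lowest in female 12, at 18.3 CPM, while Ech1 and Acot4 were highest there. Without both animals the fold differences of Hao2, Phyh and Hacl1 were 12.1, 3.18 and 2.85.

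**Figure D4:**
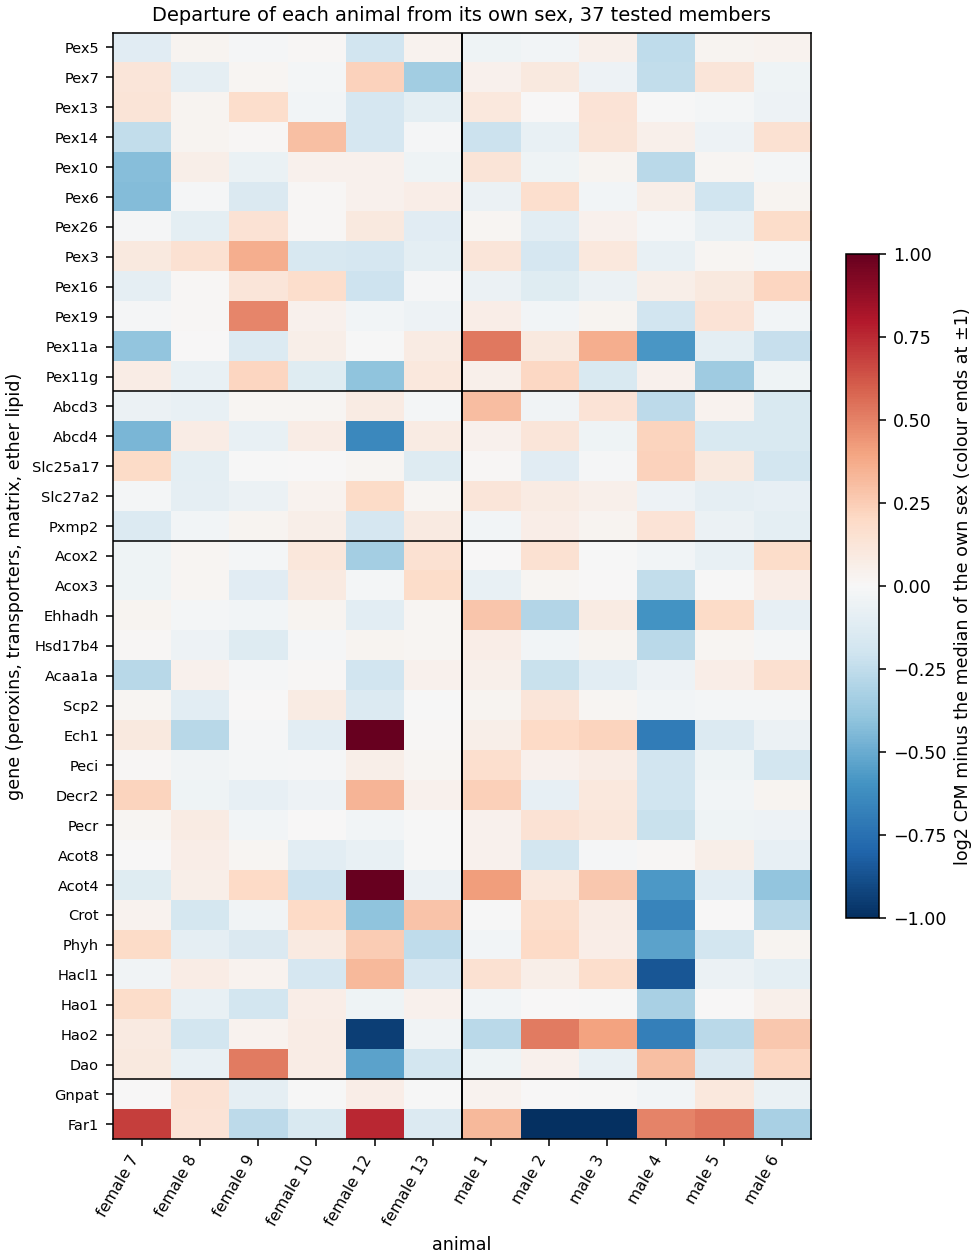
Log2 CPM of 37 tested genes in each animal minus the median of its own sex, with red above and blue below, the colour ending at 1 log2 unit, and lines between peroxins, transporters, matrix enzymes and ether lipid enzymes. The column of male 4 is blue in most matrix enzymes, female 12 is red for Ech1 and Acot4 and blue for Hao2, and the low counts of Far1 scatter widely.

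Other genes of the organelle, from a list of 44 present and 43 tested, were called in both directions: 13 (30.2%) were higher in males and 8 (18.6%) in females, beside 22.7% and 20.5% of all genes tested. The count for males was 20 without female 12 and 22 without male 4 and female 12, with 7 for females in either case. In these settings 22.1% and 22.5% of all genes were called higher in males, and 19.7% and 24.2% in females. Among those higher in males Amacr, the racemase that readies branched chains for Acox2, ran from 133 to 181 CPM in females (median 171) and from 357 to 477 in males (median 392). Baat, which joins bile acids to amino acids, ran from 966 to 1163 and from 1384 to 1822 (medians 1044 and 1639), and Prdx5, a peroxidase, from 138 to 160 and from 214 to 253 (medians 151 and 231). None of these 3 overlapped between the sexes, and they were 2.46-, 1.55- and 1.54-fold higher in males. Cat, the catalase that removes hydrogen peroxide, ran from 1783 to 2487 CPM in females (median 2306) and from 2976 to 3241 in males (median 3064), a 1.38-fold difference (adjusted p = 0.000495).

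The same list held genes higher in females. Acot5, a peroxisomal thioesterase of the Acot4 family, ran from 15.6 to 36.2 CPM in females (median 22.7) and from 1.08 to 5.65 in males (median 2.51), an 8.60-fold difference (4.91 to 15.1, adjusted p = 4.4e-05). Crat, the carnitine acetyltransferase, was 2.14-fold higher with overlap (25.3 to 127 against 19.4 to 40.6 CPM, adjusted p = 0.0284), a call lost without female 8, 12 or 13 or without male 4 or 6 (1.73-fold and 0.0601 without female 12). The dehydrogenase gene Idh1 (538 to 654 against 377 to 428 CPM) and the division gene Dnm1l (21.0 to 27.8 against 9.54 to 18.8 CPM) did not overlap, and were 1.45- and 1.41-fold higher.

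**Figure D5:**
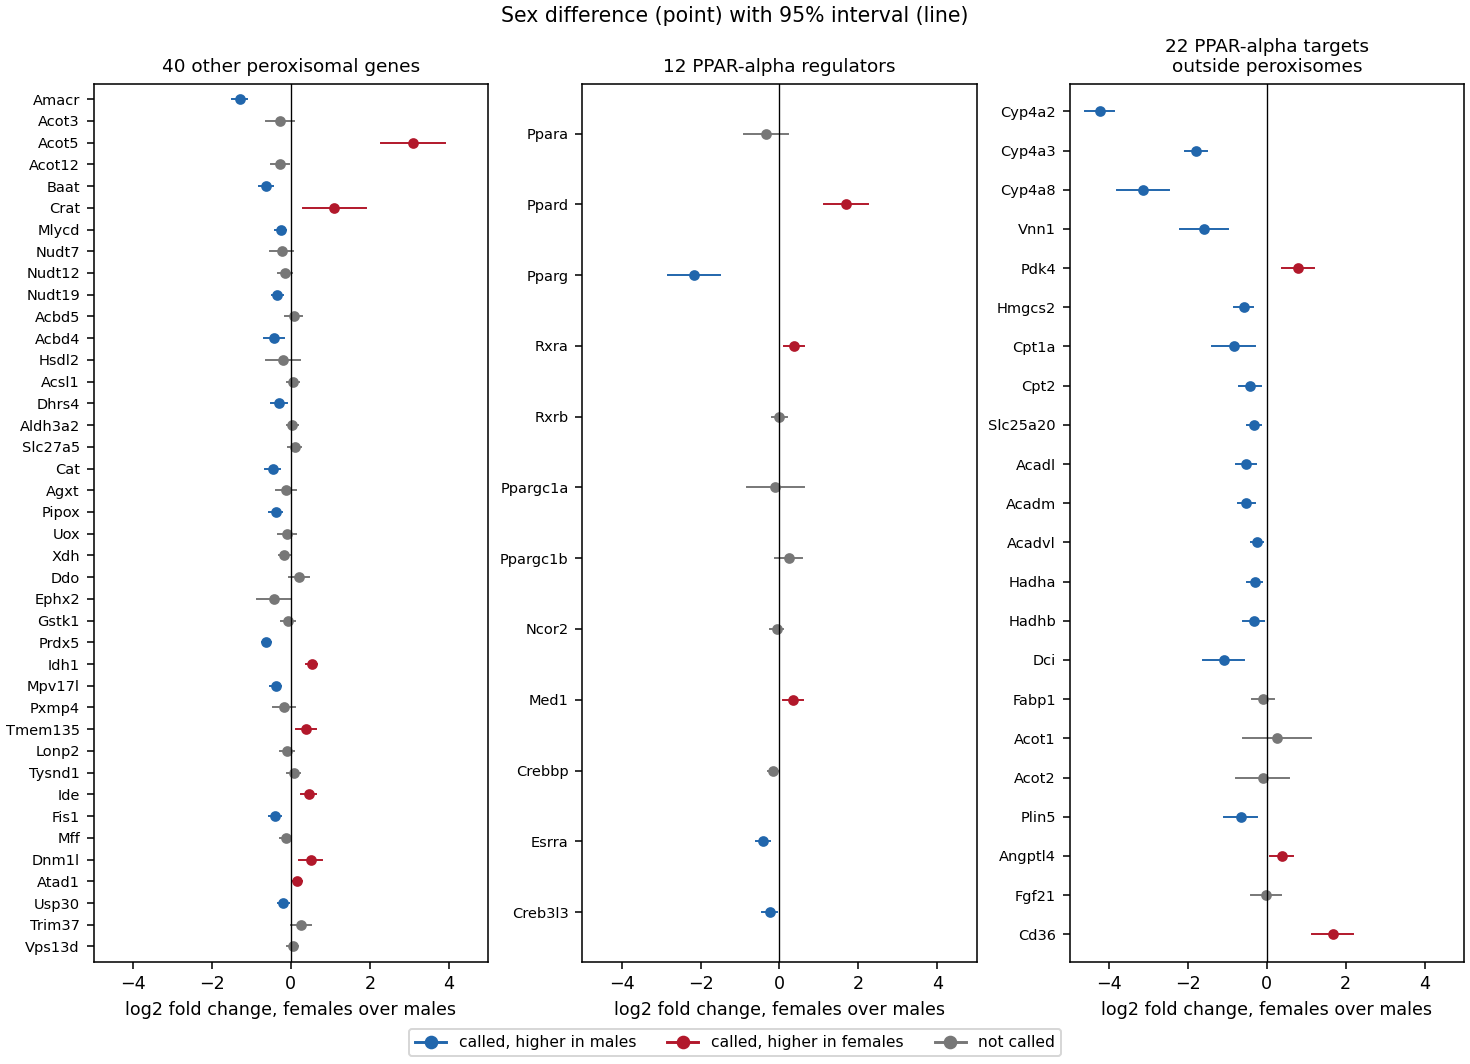
Log2 fold change, females over males, with 95% intervals, of 40 other peroxisomal genes, 12 genes of PPAR-alpha and its partners, and 22 PPAR-alpha targets outside peroxisomes, coloured by call. The targets lie mostly left of 0, from -4.23 for Cyp4a2 to 1.67 for Cd36, while the other 2 panels have calls on both sides.

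PPAR-alpha and its partners gave 3 genes higher in each sex of 12 tested (25.0%, beside 22.7% of all genes in males and 20.5% in females). Without male 4 and female 12 they gave 5 higher in males and 2 in females, beside 22.5% and 24.2% of all genes tested. Ppara itself ran from 12.7 to 33.7 CPM in females (median 16.1) and from 13.4 to 33.4 in males (median 23.8) and was not called (log2 fold change -0.34, adjusted p = 0.315). Without female 12, the highest female, Ppara was 1.51-fold higher in males (adjusted p = 0.0271), and without male 4 as well it was 1.62-fold higher (0.00124). Rxra, its partner on DNA, was 1.29-fold higher in females (104 to 134 against 71.7 to 121 CPM, adjusted p = 0.0218, and 0.054 without male 4 and female 12), and the coactivator gene Ppargc1a was not called (0.415 to 1.69 against 0.698 to 2.36 CPM, adjusted p = 0.829). The related receptors went opposite ways, with Ppard 3.20-fold higher in females (14.8 to 44.0 against 7.62 to 14.0 CPM) and Pparg 4.49-fold higher in males (0.364 to 1.34 against 2.10 to 3.81 CPM). Pparg reached the level the filter asks for, 0.621 CPM, in 6 males and 2 females, so that it passed through the males. Med1 was 1.27-fold higher in females, and Esrra and Creb3l3 were 1.34- and 1.19-fold higher in males. The call of Med1 was lost without female 7 or male 2, and that of Creb3l3 with upper quartile factors and on leaving out female 7, 8, 9, 10 or 13 or male 1, 2, 3 or 6.

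Of 22 tested PPAR-alpha targets outside the peroxisome, 15 (68.2%) were higher in males and 3 (13.6%) in females, beside 22.7% and 20.5% of all genes tested, with a median log2 fold change of -0.38. Without male 4 and female 12 the counts were 15 and 2, beside 22.5% and 24.2% of all genes tested. The fatty acid hydroxylase genes Cyp4a2 (72.8 to 124 against 1163 to 2117 CPM), Cyp4a8 (0.0987 to 0.606 against 2.41 to 5.24) and Cyp4a3 (13.1 to 20.4 against 43.4 to 69.0) led the male side, at 18.8-, 8.82- and 3.46-fold. Cyp4a8 passed the filter through the males, with 1 female at its level, so that it had to differ. These are close copies, between which reads may be split. On the female side stood Cd36, a fatty acid uptake gene, at 3.19-fold (91.7 to 178 against 22.1 to 56.0 CPM), Pdk4 at 1.73-fold (67.3 to 101 against 26.0 to 61.4) and Angptl4 at 1.29-fold (190 to 335 against 167 to 243), whose call was lost without female 12 or 13 or without male 1, 2, 5 or 6. Cd36, Pdk4 and the 3 Cyp4a genes did not overlap between the sexes.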

How the data were processed

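Per the labels' protocols, libraries of liver total RNA from 12 rats, 6 of each sex, had been prepared with an Illumina TruSeq RNA kit. Bowtie2 version 2.0.2, DESeq and build rn4 are named in the submitters' processing notes. The sources used here do not give the counting program, the annotation or the strand setting, and overlapping or antisense genes may therefore share reads. Raw read counts per gene were deposited by the authors. A further 5 rows that name no gene held 27.1% to 31.7% of a library's counts and were left out of totals and tests.

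The test was that of edgeR 4.0.16 under R 4.3.3 (filterByExpr with minimum count 10 and minimum total 15, TMM factors, robust quasi-likelihood F test, sex as the only term), with Benjamini-Hochberg adjustment over 9943 genes. Fold intervals are 95% intervals from that fit. No 2 libraries of the same sex agreed within sampling noise (lowest chi-square 6.34 per degree of freedom, 30 pairs). Nothing in the labels gives a batch, litter or collection time, and a batch that followed the animal numbers cannot be told apart from sex. Alternatives were other scalings and filters, DESeq2 1.42.0, limma-voom (limma 3.58.1), a stricter threshold and leaving out animals.

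The members, lists, pairs and tests were chosen with earlier results of these data known. Some genes are not reported here, though the counts over lists include them. Values by animal are given for up to 4 called genes per direction and the most abundant uncalled gene of each role, for Pex5, Pex11a, Abcd2, Abcd3, Ehhadh, Hsd17b4, Acaa1a and Acox2, for up to 4 called genes per direction of the other peroxisomal list with Cat, for up to 3 per direction of the regulators with Ppara, Rxra and Ppargc1a, and for up to 3 per direction of the PPAR-alpha targets. Acot4, Pxmp3 and the genes of the closing section were added after their values were seen. Promoter sequences are from RefSeq (GRCr8), a build that differs from that of the counts, and genes were matched by symbol. Protein sequences were not used here.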

Additional observations from a re-analysis of the deposited data

Results flagged for a closer look

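Dixon's ratio at the 95% level was applied to 80 groups (40 genes in each sex). In 9 of these groups an animal lay outside the others of its sex. Chance alone gives this in about 1 of 20 independent groups. These groups hold the same animals throughout and are not independent, so their number is not set against that rate. The share over all genes was not taken. Male 4 was the low animal for 4 genes. It held Pex5 at 107.7 CPM against 125 to 133 in the other males, Hsd17b4 at 507.4 against 599 to 639, Hacl1 at 199.9 against 339 to 409, and Hao1 at 448.1 against 550 to 580. Female 12 was the outlying animal for 3 genes, high for Ech1 (293.1 CPM against 102 to 133 in the other females) and Acot4 (88.71 against 36.5 to 48.3), and low for Hao2 (18.27 against 30.8 to 37.3). Female 7 was low for Pex10 (11.55 CPM against 14.8 to 16.1), and female 9, the library of the lowest depth, was high for Pex19 (51.24 against 35.4 to 37.7).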

How the results depend on the processing

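Of the 21 called members 16 kept their call in all 22 alternative fits, 14 of the 19 uncalled ones stayed uncalled, and none of the 40 changed direction with a call. The exceptions included Pex16 and Acox3 among the called and Pex7, Pex10, Slc25a17, Acot4 and Crot among the uncalled. Leaving out 1 animal at a time gave 2 to 4 members higher in females and 16 to 18 in males, 0 to 2 and 2 to 3 peroxins, 0 to 1 and 13 to 14 matrix enzymes, and 0 and 1 to 2 transporters (2 without female 7 or without male 6). At an adjusted p of 0.01, 1 member was higher in females, with 0 peroxins and 0 matrix enzymes, and 1 peroxin (Pex14) was higher in males. The member higher in females was Far1, which passed the filter through the females alone. Peroxins higher in females numbered 1 with library totals, 1 with no filter and 1 without male 4 and female 12 together. With no filter 0 matrix enzymes and 1 transporter (Abcd2) were higher in females. The other scalings, DESeq2 and limma-voom kept every count within 1.5 times. In an alternative chosen after seeing the data, other peroxisomal genes higher in males numbered 20 without female 12. Without male 4 and female 12 together they numbered 22, and the PPAR-alpha regulators higher in males 5. Of all genes tested, 22.1% were called higher in males without female 12 and 22.5% without both animals. The median log2 fold change ran from -0.14 to -0.04 over the alternatives for peroxins and from -0.40 to -0.29 for matrix enzymes. Among the ratios, Pex7 over Pex5 passed without female 12 (-0.36, adjusted p = 0.0146 by the exact permutation test) and ran from -0.36 to -0.19 over single omissions, and Agps over Gnpat passed without female 10 (0.93, adjusted p = 0.0341 by the exact permutation test) and ran from 0.56 to 0.93. With no count added, Abcd2 over Abcd3 gave no value because 2 males had 0 counts. The cause of these shifts was not tested. Depth limits Abcd2, Agps, Far1 and Pex5l, where a few counts decide a value. No paired analysis was possible because the animal numbers of females and males do not coincide, and the groups share no replicate number.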

Other observations

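Female 12 was the highest female for 19 of the 22 tested PPAR-alpha targets outside the peroxisome and the lowest for 0, while over all genes tested it was highest for 24.3%. These genes were singled out after their values were seen. Ppara itself stood at 33.7 CPM in female 12, against 12.7 to 18.5 in the other females. The thioesterase genes Acot1 and Acot2 stood at 26.8 and 94.7 CPM, against 6.32 to 8.18 and 31.8 to 42.2. Cpt1a, which admits fatty acids to mitochondria, stood at 281 CPM against 87.6 to 143, and Dci, a mitochondrial enoyl-CoA isomerase now called Eci1, at 340 against 135 to 178. Plin5, a coat protein of lipid droplets, stood at 6.24 CPM against 3.27 to 3.59. Among the other peroxisomal genes, Ephx2 stood at 207 CPM in female 12 against 105 to 125, Crat at 127 against 25.3 to 76.2 and Pxmp4 at 62.7 against 37.9 to 46.7. The matrix enzymes did not follow as a class. Female 12 was the highest female for 7 of 18 and the lowest for 7, beside 24.3% and 25.1% of all genes tested.

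Of the same 22 targets male 4 was lowest among males for 12 and highest for 1, beside 30.3% and 28.6% of all genes tested. The mitochondrial dehydrogenase genes Acadl and Acadm stood at 469.5 and 600.1 CPM in male 4, against 628 to 788 and 848 to 871 in the other males, and Cpt2 at 148 against 223 to 238. Ppara stood at 13.4 CPM in male 4, against 19.9 to 33.4. Uox, the urate oxidase of the peroxisome core, stood at 795 CPM against 1084 to 1280, and Lonp2, the peroxisomal protease, at 162 against 218 to 237.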
